A study of Homo sapiens with 10 samples.

Results

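EPCAM, 5 claudins and 3 of their tight junction partners were followed in human embryonic stem cells of high self-renewal capacity and in the cultures they were sorted from. The 9 genes were *EPCAM*, *CLDN3*, *CLDN4*, *CLDN6*, *CLDN7*, *CLDN10*, *OCLN*, *TJP1* and *F11R*, taken as the rows of the count table whose Ensembl identifiers match these symbols. They are 9 of 55841 counted genes, and all 9 passed the filter on low counts that left 23552 genes for testing. The cells were a line that the labels name HES9, grown in mTeSR1 on Matrigel without feeder cells, while the study's text names WA09 for its transcriptome work, a difference that is not resolved here. The general population (5 libraries) was unsorted, and the HHH population (5 libraries) was the sorted fraction with high GCTM-2, CD9 and EPCAM on the surface, defined in the methods as those GCTM-2 and CD9 high cells that stained brightest for EPCAM. Both populations carry no label of any agent, although the design text mentions a protein kinase C inhibitor, and whether a library was treated is not resolved here. Batch 1 held 2 general and 2 HHH libraries, and batch 2 held 3 of each. What the batches are is not given in the labels, nor is whether replicates were separate cultures, so p-values measure the spread between these libraries, which may be technical.

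EPCAM is a homophilic adhesion molecule of simple epithelia and of pluripotent stem cells, and its antibody is widely used to purify both. Claudins are membrane proteins spanning the membrane, whose extracellular loops seal or open the paracellular space, and EPCAM binds and stabilizes some of them, claudin-7 above all. Occludin lies in the same strands as claudins, and the adhesion molecule JAM-A, encoded by *F11R*, lies at the same junctions. ZO-1, encoded by *TJP1*, ties the strands to actin. Primed pluripotent cells grow as polarized epithelial sheets with such junctions.

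Total counts ran from 47242595 to 78503395 per library, and the detection floor of 3 counts was 0.046 to 0.0687 CPM (the count scaled by the library's TMM-adjusted size, with counting error only). The lowest count of any of the 9 genes in a library was 364. The 6 pluripotency markers were present in both populations, at 3770 to 5120 CPM in sum in the general libraries and 3640 to 4780 CPM in HHH. This sum was mostly *LIN28A* and *DNMT3B*. In edgeR with batch as a term, *NANOG* was higher in HHH (log2 fold change 0.44, adjusted p = 0.0057). *SOX2* was lower there (-0.26, adjusted p = 0.0375), and the other 4 did not pass. Of the markers of other cells, the 6 neural genes summed to 1.91 to 3.83 CPM in general and 1.19 to 1.43 CPM in HHH, the 5 mesendoderm genes to 0.654 to 1.3 and 0.733 to 0.99 CPM, the 4 endoderm genes to 0.0333 to 0.922 and 0.0354 to 1.72 CPM, and the 4 trophoblast or amnion genes, nearly all of it *KRT7*, to 5.58 to 10.4 and 3.43 to 5.43 CPM. The 5 fibroblast genes summed to 118 to 142 CPM in general and 82.1 to 122 CPM in HHH, mostly *COL1A2* and *COL1A1*, while *DCN* was at 0 in every general library and *LUM* averaged 0.00642 CPM there. In bulk samples, fewer cells of a type and less RNA per cell cannot be told apart.

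*CLDN6* had by far the highest level per length of the 9 genes, at a mean of 217 CPM per kb of transcript (range 152 to 318 over 10 libraries), with the length taken from the authors' own RPKM values. Claudin-6 is a claudin of embryonic epithelia that is largely lost in adult tissue. *EPCAM* followed at 67.5 CPM per kb (45.9 to 103), *F11R* at 59.1 (51.5 to 64.5), *CLDN7* at 39.5 (29 to 55.6) and *TJP1* at 16.5 (13.8 to 18.8). *CLDN6* was above *EPCAM* in 10 of 10 libraries with no overlap of their ranges, whereas *EPCAM* was above *F11R* in 7 of 10 and those ranges overlapped. *F11R* was above *CLDN7*, *CLDN7* above *TJP1*, and *TJP1* above *CLDN4* in 10 of 10 libraries each. The last 4 genes had no fixed order: *CLDN4* averaged 7.12 CPM per kb, *CLDN10* 6.86, *CLDN3* 6.64 and *OCLN* 6.1, and each exceeded the next in only 4 to 6 of 10 libraries. For *OCLN* the value falls to 3.71 CPM per kb with the exonic length of GENCODE 44 (11.3 kb) in place of the length implied by the authors' values (6.85 kb).

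**Figure D1:**
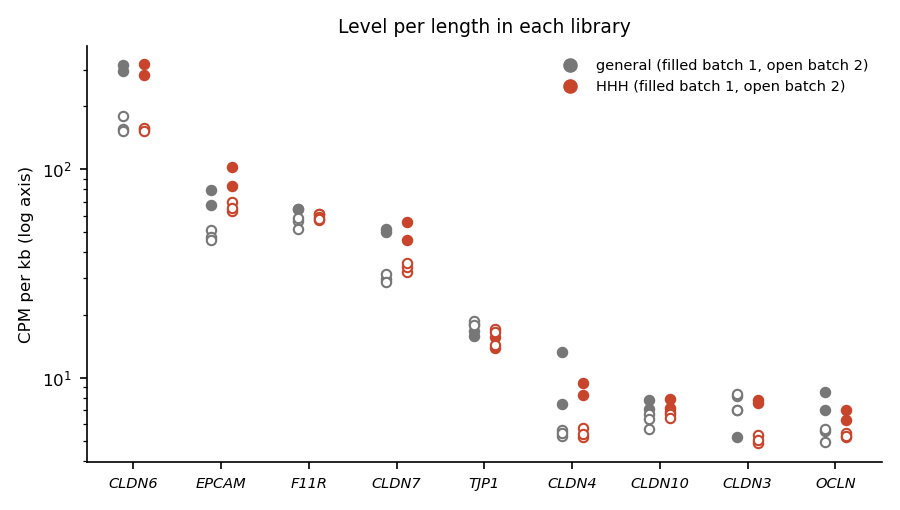
Level per length (CPM per kb, log axis) of the 9 genes in the 10 libraries, grey for general and red for HHH, filled for batch 1 and open for batch 2. CLDN6 lies highest, from 152 to 318, and CLDN4, CLDN10, CLDN3 and OCLN overlap between 4.84 and 13.4.

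The genes lie on separate chromosomes except for 1 pair (coordinates in GRCh38, from GENCODE 44, not in the build of the authors' processing). *CLDN3* (ENSG00000165215, chr7:73768997-73770270, minus strand) and *CLDN4* (ENSG00000189143, chr7:73799542-73832690, plus strand) are neighbours, and *EPCAM* (ENSG00000119888) lies at chr2:47345158-47387601 on the plus strand. *CLDN6* (ENSG00000184697) lies at chr16:3014712-3020071, *CLDN7* (ENSG00000181885) at chr17:7259903-7263983 and *CLDN10* (ENSG00000134873) at chr13:95433604-95579759. *OCLN* (ENSG00000197822) lies at chr5:69492292-69558104, *TJP1* (ENSG00000104067) at chr15:29699367-29968915 and *F11R* (ENSG00000158769) at chr1:160995211-161021343. The values of *CLDN10* are less certain than the rest, since it shares 46% of its exonic bases with *DZIP1* on the other strand. Whether the counting used strand is not given. Of the 50-base words of the longest *F11R* transcript, 37.5% also occur in other genes, mainly in the readthrough gene ENSG00000270149. *F11R* shares 0% of its exonic bases with other counted genes, and how reads matching more than 1 gene were counted is not given. For *CLDN7* 12.3% of exonic bases are shared, and for *OCLN* 9.47% of such words recur, mainly in its pseudogene *OCLNP1*.

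The sequences around the start sites are shown for 3 claudins because the Snail, ZEB and Twist repressors measured below act on epithelial genes through E-boxes. RefSeq windows (GRCh38.p14, 250 bases before to 50 after a start) matched 7 of the 9 genes, with 13 windows in all, and none matched *EPCAM* or *F11R*. The E-box CACCTG, searched on both strands as CACCTG or CAGGTG, is in capitals. The windows are chr7:73770221-73770520 (minus strand) for *CLDN3*, chr7:73830746-73831045 (plus strand) for *CLDN4* and chr17:7262429-7262728 (minus strand) for the downstream of the 2 starts of *CLDN7*.
CLDN3: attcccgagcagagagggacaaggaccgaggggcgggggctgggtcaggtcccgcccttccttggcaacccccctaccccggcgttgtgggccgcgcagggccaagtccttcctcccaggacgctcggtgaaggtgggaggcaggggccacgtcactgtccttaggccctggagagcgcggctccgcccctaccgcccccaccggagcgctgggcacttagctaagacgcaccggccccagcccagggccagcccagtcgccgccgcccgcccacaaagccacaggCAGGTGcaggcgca
CLDN4: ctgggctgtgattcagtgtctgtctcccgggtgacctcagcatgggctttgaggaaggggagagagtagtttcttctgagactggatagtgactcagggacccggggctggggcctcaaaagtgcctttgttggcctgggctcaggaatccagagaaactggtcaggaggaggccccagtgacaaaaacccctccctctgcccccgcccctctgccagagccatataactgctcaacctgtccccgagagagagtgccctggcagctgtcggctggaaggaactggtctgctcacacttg
CLDN7: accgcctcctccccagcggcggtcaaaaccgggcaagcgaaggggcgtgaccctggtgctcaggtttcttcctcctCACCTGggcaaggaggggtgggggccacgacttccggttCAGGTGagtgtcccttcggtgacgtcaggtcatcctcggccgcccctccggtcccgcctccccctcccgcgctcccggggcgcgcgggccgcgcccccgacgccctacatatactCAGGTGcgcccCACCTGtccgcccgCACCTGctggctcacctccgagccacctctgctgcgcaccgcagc
The *CLDN7* window shown was chosen for its 5 E-boxes, and the window of the other start (chr17:7263164-7263463) holds 0. The *CLDN3* window holds 1 and the *CLDN4* window 0. Over all 35116 windows of this length, 20.6% hold at least 1 and 0.094% hold 5 or more, and 6 of the 13 windows of these genes hold at least 1. The *CLDN3* window, of 72% GC, is also richer in G and C than the *CLDN4* window, of 59%.

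*EPCAM* transcript was higher in HHH. In batch 1 it stood at 171 and 203 CPM in the general libraries and at 262 and 213 CPM in HHH. In batch 2 it stood at 130, 121 and 117 CPM in general and at 178, 161 and 166 CPM in HHH. The populations did not overlap within either batch, and they did overlap when the batches were pooled. General libraries averaged 148 ± 37.2 CPM (SD, n = 5) against 196 ± 42 CPM (SD, n = 5) for HHH, which is 1.33-fold, or 0.41 on the log2 scale (SE 0.0806, 95% interval 0.24 to 0.59), at an adjusted p of 0.0064 in edgeR's quasi-likelihood test with batch as a term. It was 0.34 (SE 0.139, adjusted p = 0.365) in batch 1 alone and 0.45 (SE 0.0834, adjusted p = 0.0041) in batch 2 alone, and the difference between the batches was 0.12 (SE 0.158, adjusted p = 0.722). Since EPCAM protein was one of the sort antigens, the direction for its transcript is not independent of the gate. The call held in 21 of 23 alternative fits, and in 10 of 10 with a library left out. It was lost without the batch term (0.40, adjusted p = 0.527) and in limma on the deposited log2 values (0.28, adjusted p = 0.284), where the median of all genes was itself shifted by -0.12.

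**Figure D2:**
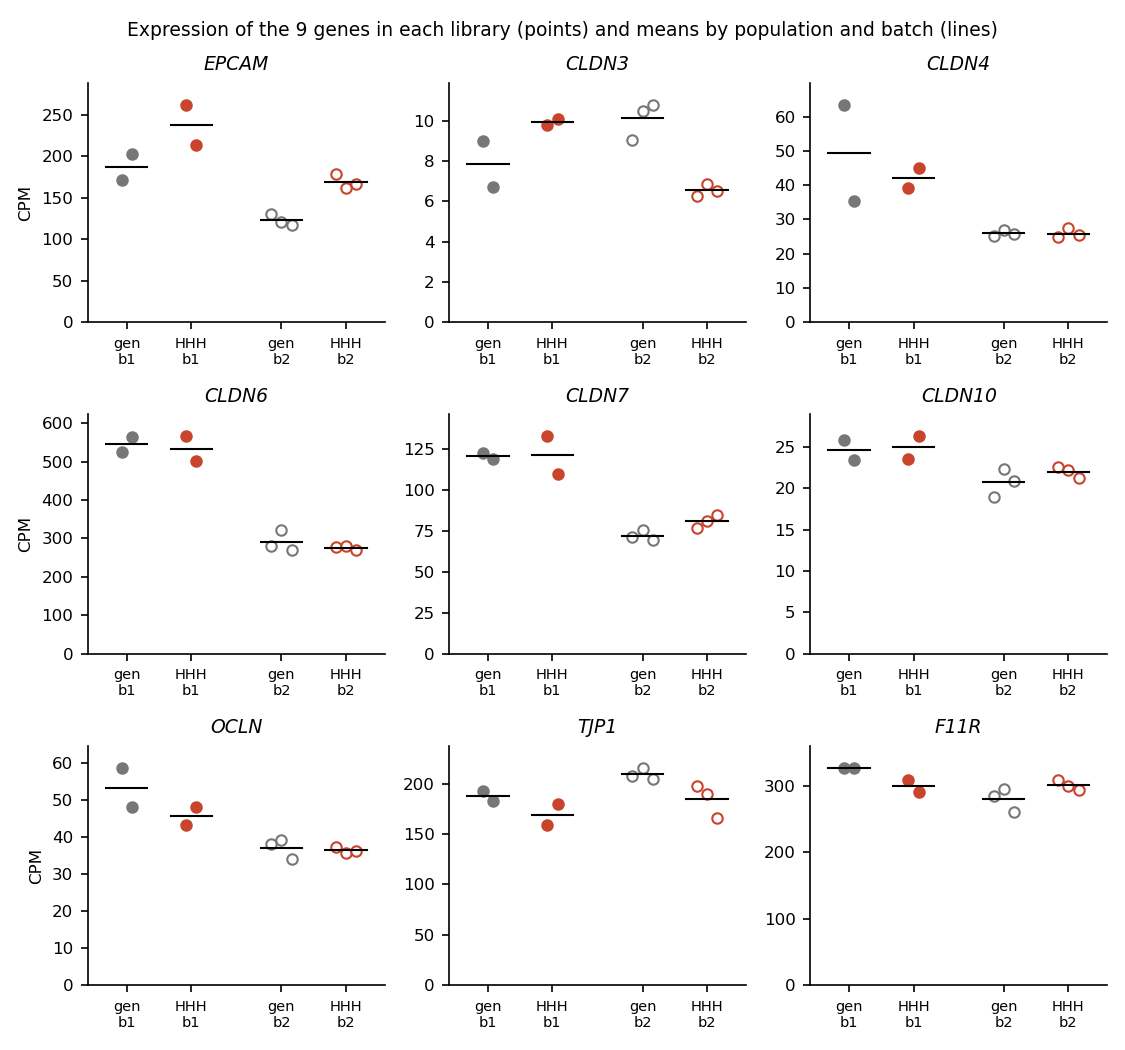
CPM of each of the 9 genes in every library (points, grey for general and red for HHH, filled for batch 1 and open for batch 2) with the mean of each population in each batch (lines). EPCAM is higher in HHH in both batches, from 117 to 203 CPM in general and 161 to 262 CPM in HHH, and CLDN6 lies between 270 and 566 CPM, set mainly by batch.

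None of the other 8 genes passed the test between the populations. With *EPCAM*, 1 of 9 was called higher, where 1.94% of all 23552 tested genes were, and 0 of 9 were called lower, where 3.89% of all were. DESeq2 also called 1 of the 9, and *TJP1* was the only other member with an unadjusted p under 0.05. The median log2 fold change of the 9 was -0.06, and that of all tested genes was 0.02. The 458 higher and 915 lower calls behind these shares became 808 and 1000 with a GC trend removed from each library, 248 and 817 with scaling by library size only, and 54 and 1183 on the deposited log2 values.

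*CLDN7*, the claudin that binds EPCAM most directly, was measured at 123 and 119 CPM in general and 133 and 110 CPM in HHH in batch 1. In batch 2 the values were 71.2, 75.6 and 69.2 CPM in general and 77, 81.3 and 84.8 CPM in HHH. The populations overlapped in batch 1, while in batch 2 each HHH library lay above each general one. The log2 fold change was 0.10 (SE 0.0738, 95% interval -0.05 to 0.26, adjusted p = 0.446), and within batch 2 it was 0.16 (adjusted p = 0.189). With a GC trend removed it was 0.35 within batch 2 (adjusted p = 0.0215), a fit added after the data had been seen, and over both batches together with the replicate number as a block it was 0.30 (adjusted p = 0.0394). These were the only alternatives that passed, 1 of 10 within batch 2 and 1 of 23 over both batches. Over both batches *CLDN7* passed in 0 of 10 fits with a library left out.

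*CLDN6* did not differ detectably between the populations and was set by batch. It was measured at 525 and 565 CPM in general and 566 and 502 CPM in HHH in batch 1, against 279, 322 and 270 CPM in general and 278, 280 and 270 CPM in HHH in batch 2. The populations overlapped in both batches, and no library of one batch reached the range of the other. The log2 fold change between populations was -0.06 (SE 0.0742, 95% interval -0.21 to 0.10, adjusted p = 0.718).

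*CLDN4* and *CLDN3* are both receptors of the Clostridium perfringens enterotoxin. *CLDN4* was measured at 63.5 and 35.5 CPM in the general libraries of batch 1, at 39.1 and 44.9 CPM in HHH of that batch, and at 24.7 to 27.4 CPM in all 6 libraries of batch 2. The populations overlapped in both batches. The log2 fold change was -0.10 (SE 0.123, 95% interval -0.36 to 0.17, adjusted p = 0.695), and it was 0.07 without the general library at 63.5 CPM (batch 1 replicate 1).

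*CLDN3* went in opposite directions in the batches. In batch 1 it was measured at 9 and 6.69 CPM in general and 9.78 and 10.1 CPM in HHH. In batch 2 it was measured at 9.06, 10.5 and 10.8 CPM in general and 6.25, 6.88 and 6.51 CPM in HHH. The populations overlapped in neither batch, HHH being above in batch 1 and below in batch 2. Over both batches the log2 fold change was -0.24 (SE 0.16, adjusted p = 0.412). It was 0.33 (SE 0.182, adjusted p = 0.499) in batch 1 and -0.64 (SE 0.106, adjusted p = 0.0021) in batch 2. The difference between the batches was -0.97 (SE 0.197, adjusted p = 0.0389), which made *CLDN3* 1 of 9 genes called in that test, where 0.777% of all tested genes were called.

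Genes of like GC content also differed between the batches, and the part of GC content in the *CLDN3* difference was not tested. The longest *CLDN3* transcript has a GC content of 69.2%, the highest of the 9. Tested genes within 2 percentage points of it had a median log2 fold change of 0.37 in batch 1 (234 genes) and -0.28 in batch 2 (241 genes), and a median difference between the batches of -0.58 (237 genes). With a trend in GC content removed from each library, *CLDN3* stood at -0.04 in batch 1 (adjusted p = 0.958) and -0.32 in batch 2 (adjusted p = 0.0446), and the difference between the batches was -0.31 (SE 0.189, adjusted p = 0.501). The call on the difference was also lost in 8 of the 10 fits with a library left out, where the value ran from -1.20 to -0.77, and it was kept without general batch 1 replicate 1 and without general batch 2 replicate 1. The within-batch 2 call held in all 10 of its alternatives.

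**Figure D3:**
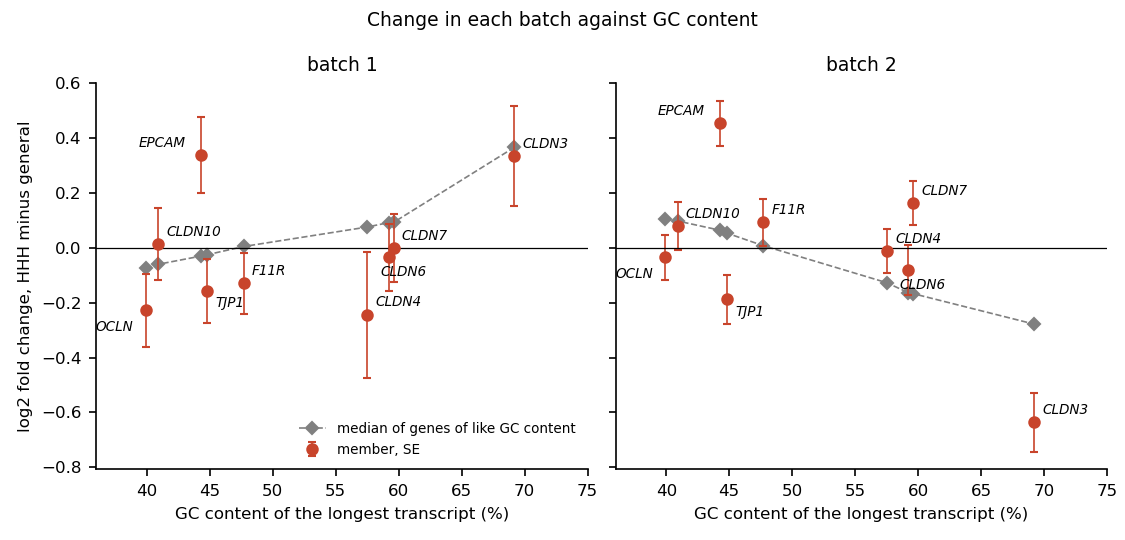
Log2 fold change of HHH against general in batch 1 (left) and batch 2 (right) for each of the 9 genes (red, with SE) against the GC content of its longest transcript, with the median of all tested genes within 2 percentage points of that GC content (grey). The grey medians run from -0.07 to 0.37 in batch 1 and from 0.11 down to -0.28 in batch 2, CLDN3 lies at the right end of both, and EPCAM lies above the grey line in both.

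*CLDN10*, a claudin of ion-selective pores, ran from 18.9 to 25.8 CPM in general and from 21.2 to 26.3 CPM in HHH. The populations overlapped in both batches, and the log2 fold change was 0.06 (SE 0.073, 95% interval -0.10 to 0.22, adjusted p = 0.683). Because of the bases it shares with *DZIP1*, these values may hold counts of both genes.

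*OCLN*, the first membrane protein described in tight junction strands, ran from 33.9 to 58.6 CPM in general and from 35.6 to 48.1 CPM in HHH, with overlap in both batches. The log2 fold change was -0.11 (SE 0.0788, 95% interval -0.27 to 0.06, adjusted p = 0.472). *F11R* was the steadiest between libraries of HHH, at 291 to 308 CPM, and ran from 261 to 327 CPM in general. Its HHH libraries lay below the general ones in batch 1 (308 and 291 against 326 and 327 CPM) and overlapped them in batch 2, and the log2 fold change was 0.01 (SE 0.072, 95% interval -0.14 to 0.16, adjusted p = 0.952).

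*TJP1*, the scaffold ZO-1, tended the other way from *EPCAM* without passing the test. It was measured at 193 and 183 CPM in general and 159 and 180 CPM in HHH in batch 1, and at 208, 216 and 205 CPM in general and 198, 190 and 166 CPM in HHH in batch 2. Each HHH library lay below each general library of its batch. The log2 fold change was -0.17 (SE 0.0717, 95% interval -0.32 to -0.02) with an unadjusted p of 0.0333 and an adjusted p of 0.197. It kept its sign in 23 of 23 alternatives, from -0.31 to -0.13, and passed in 0 of them.

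By overlap alone, 4 of the 9 genes (*EPCAM*, *CLDN3*, *TJP1* and *F11R*) had populations that did not overlap in batch 1, where 43.5% of all tested genes did not. In batch 2 it was 4 of 9 (*EPCAM*, *CLDN3*, *CLDN7* and *TJP1*), where 36.2% of all did not. *EPCAM* and *TJP1*, 2 of 9, did not overlap in the same direction in both batches, against 9.35% of all tested genes. Called by the test, 0 of 9 passed in batch 1 in either direction, where 0.573% of all genes passed in edgeR. *EPCAM* was the 1 member with an unadjusted p under 0.05 there (0.0366), and DESeq2 also called 0. In batch 2 1 of 9 was higher (*EPCAM*, against 5.13% of all genes) and 1 of 9 lower (*CLDN3*, against 8.05%).

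**Figure D4:**
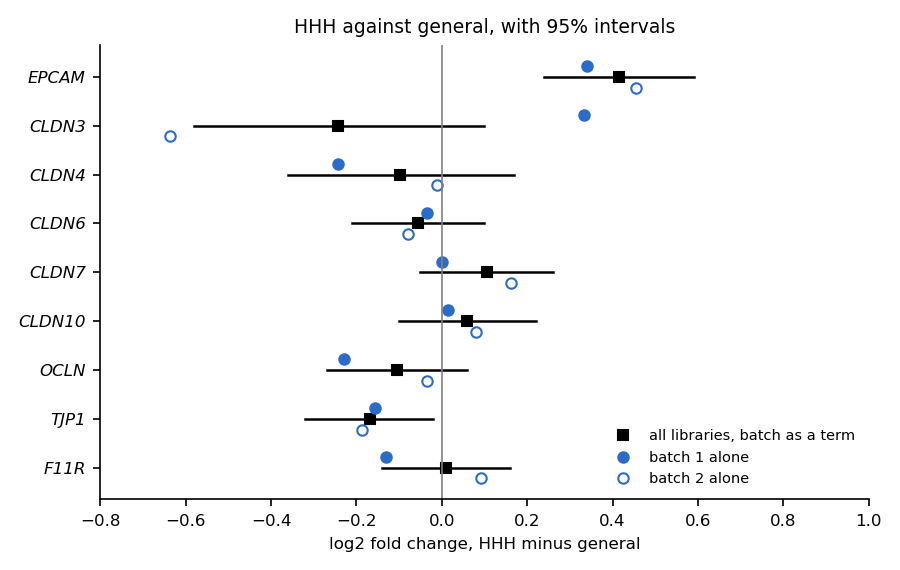
Log2 fold change of HHH against general for each of the 9 genes, from all 10 libraries with batch as a term (squares, with 95% intervals not adjusted for the number of genes) and from batch 1 or batch 2 alone (filled and open circles). EPCAM, at 0.41, lies clear of 0, TJP1 at -0.17 has an interval that ends at -0.02, and the batches part for CLDN3, at 0.33 and -0.64.

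Batch differences were larger in size than population differences for 7 of the 9 genes, the exceptions being *CLDN3* (-0.12 against -0.24) and *TJP1* (0.14 against -0.17). Of the 9, 6 were lower in batch 2 (*EPCAM*, *CLDN4*, *CLDN6*, *CLDN7*, *CLDN10* and *OCLN*), where 23.9% of all tested genes were lower, and 0 were higher, where 24% were. *CLDN6* fell the most, from 540 ± 31.3 CPM (SD, n = 4) to 283 ± 19.5 CPM (SD, n = 6), a log2 difference of -0.93 (SE 0.0747, adjusted p = 4.67e-07). *CLDN4* followed at -0.82 (SE 0.124, adjusted p = 1.21e-04), *CLDN7* at -0.67 (SE 0.0744, adjusted p = 9.18e-06), *EPCAM* at -0.55 (SE 0.0813, adjusted p = 9.72e-05), *OCLN* at -0.43 (SE 0.0798, adjusted p = 5.86e-04) and *CLDN10* at -0.22 (SE 0.0742, adjusted p = 0.0261). *CLDN3* (-0.12), *F11R* (-0.11) and *TJP1* (0.14) did not pass. The median of the 9 was -0.43, and that of all tested genes was 0.00.

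Batch took 96.9% of the variance of log2 CPM of *CLDN6*, against 0.333% for population, and 91.1% of that of *CLDN7*, against 2.25%. For *EPCAM* batch took 57.2% and population 34.3%, and for *TJP1* batch took 26.9% and population 41.1%. In *CLDN3* and *F11R*, 81.3% and 64.6% lay outside both. The *CLDN10* call was lost in 5 of the 10 fits with a library left out (general batch 1 replicate 1, HHH batch 1 replicate 3, HHH batch 2 replicate 3, general batch 2 replicates 1 and 3), at -0.20 to -0.19. Scaling by library size alone moved the median of all genes by 0.34, and there *EPCAM* (-0.21), *CLDN4* (-0.48), *CLDN6* (-0.59) and *CLDN7* (-0.33) were still called lower, *OCLN* (-0.10) and *CLDN10* (0.12) were not called, and *TJP1* (0.47) and *F11R* (0.23) were called higher, *F11R* by less than the shift of the median. What differed between the batches is not given, so no treatment or handling can be read from these values.

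**Figure D5:**
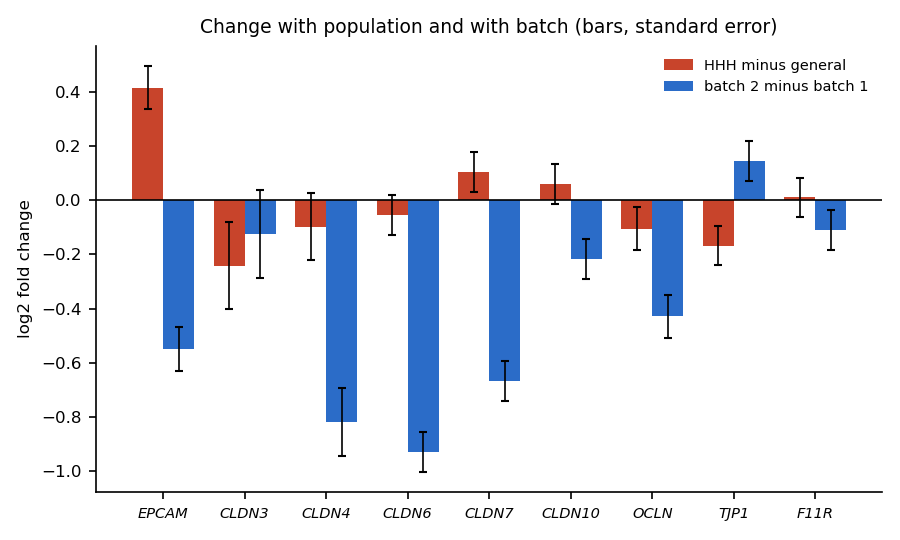
Log2 fold change of each of the 9 genes with population (red, HHH minus general) and with batch (blue, batch 2 minus batch 1), with standard errors. The blue bars of CLDN6, CLDN4, CLDN7 and EPCAM, at -0.93, -0.82, -0.67 and -0.55, are the longest, and EPCAM alone has a red bar above 0.2.

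Among 19 further claudins, 11 were tested, and 2 fell in HHH while 0 rose, where 3.89% and 1.94% of all tested genes did. *CLDN19*, a claudin of kidney and retina, ran from 9.34 to 10.7 CPM in general and from 5.9 to 8.2 CPM in HHH with no overlap, at -0.57 on the log2 scale (SE 0.0994, adjusted p = 0.0032), which passed in all 23 alternatives. *CLDN18*, a claudin of stomach and lung, averaged 0.503 ± 0.142 CPM (SD, n = 5) across general libraries against 0.205 ± 0.0645 CPM (SD, n = 5) for HHH, at -1.29 (SE 0.262, adjusted p = 0.0086). It rested on 6 to 39 counts per library and was not called without the batch term. The median of the 11 was -0.19, against 0.02 over all genes. *CLDN12* had the highest level per length among those that did not pass, at 11 CPM per kb and a log2 fold change of 0.04, which joins -0.27 in batch 1 and 0.23 in batch 2, with no overlap in either (difference between batches at an adjusted p of 0.129). It was followed by *CLDN23* at 2.05 CPM per kb and -0.33. *CLDN17* was at 0 in all libraries, and the other untested claudins were *CLDN2*, *CLDN8*, *CLDN14*, *CLDN16*, *CLDN24*, *CLDN25* and *CLDN34*.

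Of 9 other membrane proteins of the junction tested, 0 passed in edgeR in either direction, where 3.89% of all tested genes fell and 1.94% rose. Their median was -0.03. At an unadjusted p under 0.05 there were 3 (*JAM2* at -0.30, *ILDR1* at 0.40 and *ILDR2* at -0.58), and DESeq2 called 1 (*JAM2*), which edgeR also called within batch 2 (-0.34, adjusted p = 0.0459). The most abundant per length were *CXADR*, the coxsackie and adenovirus receptor (59.8 CPM per kb, log2 fold change 0.00, SE 0.0954), and *LSR*, angulin-1 of tricellular junctions (31.1 CPM per kb, -0.01, SE 0.0811). Both had opposite signs in the batches, *CXADR* at -0.23 and 0.14 and *LSR* at 0.20 and -0.16, with no call in either batch and none on the difference (adjusted p = 0.23 and 0.176). Their libraries did not overlap in batch 1, and those of *LSR* did not in batch 2 either.

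Of 20 scaffold and polarity genes, 3 fell in HHH and 0 rose, with a median of -0.07, where 3.89% of all tested genes fell and 1.94% rose. With the replicate block *MAGI2* fell as well (-0.36, adjusted p = 0.0417, against 0.126 without it). In batch 2 alone 4 of the 20 were lower (*AFDN*, *MAGI2*, *CGNL1* and *TJP3*) and 2 higher, where 8.05% and 5.13% of all genes tested in that batch were. *TJP3*, which encodes ZO-3, moved most. It was measured at 12.8 and 11.5 CPM in general and 5.87 and 8.68 CPM in HHH in batch 1, and at 20.6, 22.9 and 23.6 CPM in general and 10.6, 11.4 and 9.32 CPM in HHH in batch 2. The populations did not overlap within either batch, and the log2 fold change was -0.96 (SE 0.114, adjusted p = 1.53e-04). *TJP3* passed in 22 of 23 alternatives, among them 10 of 10 fits with a library left out, and was not called without the batch term. *CGNL1* (paracingulin, -0.43, SE 0.105, adjusted p = 0.0252) and *AFDN* (afadin, which links nectins to actin, -0.35, SE 0.0919, adjusted p = 0.0358) passed in only 3 of 10 such fits each, and neither passed with scaling by library size only. *PRKCI*, the atypical protein kinase C of the PAR complex, and *LIN7C* of the Crumbs complex were the most abundant per length that did not pass, at 0.14 (adjusted p = 0.446) and 0.26 (adjusted p = 0.218). They were the 2 called higher in batch 2, without overlap, at 0.34 (adjusted p = 0.0254) and 0.46 (adjusted p = 0.0209), and stood at -0.18 and -0.06 in batch 1, where *PRKCI* lay lower without overlap and neither was called. The difference between batches did not pass for either (adjusted p = 0.0992 and 0.168). The trophoblast or amnion marker sum given above, nearly all *KRT7*, was also lower in HHH. The fibroblast sum was lower in its median (103 against 136 CPM), and its ranges overlapped. Of its genes, edgeR called *COL1A1* (-0.94, adjusted p = 0.0033) and not *COL1A2* (-0.28, adjusted p = 0.106), and *PDGFRA* stood at 0.12. With the replicate block *COL1A2* was called as well (-0.37, adjusted p = 0.0281). The part of these markers in the falls of *TJP3*, *CGNL1*, *AFDN*, *CLDN18* and *CLDN19* was not tested.

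Among enzymes that cleave EPCAM, their inhibitors and its partners, 14 of 15 genes were tested and 0 passed in edgeR in either direction. Of all tested genes, 3.89% fell and 1.94% rose. The median of the 14 was 0.01. At an unadjusted p under 0.05 there was 1 (*NCSTN*, at -0.16), and DESeq2 called 0. The list holds *ADAM10* and *ADAM17*, which shed the ectodomain, subunits of γ-secretase, the protease matriptase (*ST14*) and its inhibitors. *SPINT2* (31.1 CPM per kb) and *APH1A* (27.4 CPM per kb) were the most abundant, at log2 fold changes of -0.04 (SE 0.0659) and 0.03 (SE 0.0642).

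Among 10 regulators of epithelial genes, 1 fell and 0 rose, beside 3.89% and 1.94% of all tested genes. This was *ELF3*, an ETS factor of epithelia, at 8.95 to 11 CPM in general and 5.72 to 7.74 CPM in HHH with no overlap (log2 fold change -0.61, SE 0.107, adjusted p = 0.0030, passing in all 23 alternatives). *ESRP1*, a splicing factor of epithelial cells, and *GRHL2*, which activates claudin and cadherin genes, did not pass, at 0.12 (SE 0.0605, adjusted p = 0.299) and 0.05 (SE 0.0726, adjusted p = 0.771). Among the 6 repressors, 5 were tested, and 1 fell and 0 rose, beside 3.89% and 1.94% of all tested genes. *ZEB2* fell from 0.64 ± 0.134 CPM (SD, n = 5) to 0.176 ± 0.112 CPM (SD, n = 5), or -1.86 on the log2 scale (SE 0.306, adjusted p = 0.0021). Its counts ran from 3 to 52 per library, the lowest of them at the detection floor. *SNAI1* (3.6 to 4.14 CPM on average) and *TWIST2* (0.739 CPM in general and 1.1 CPM in HHH on average) did not pass, at -0.20 and 0.51. The value of *TWIST2* joins 1.15 in batch 1, where HHH lay higher without overlap, and 0.03 in batch 2. It was called in neither batch, and the difference between batches did not pass (adjusted p = 0.122). The neural marker sum, given above, was also lower in HHH than in any general library, and its part in the fall of *ZEB2* was not tested.

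The genes most like *EPCAM* were taken as the protein-coding genes of at least 10 CPM with the smallest root mean square difference from it in log2 CPM centred within each batch, over 10 libraries and 9530 genes. They were *SEPHS1* (0.0673), *ZNF525* (0.0684), *OGFRL1* (0.0711), *TUBB2A* (0.0715) and *SKA3* (0.0733), where *EPCAM* itself deviates by 0.23 from its own batch means. Of the other members, *CLDN7* came nearest at rank 1761 (0.185), then *F11R* at rank 3662 (0.22), and *CLDN4* was the farthest at rank 8653 (0.369), while *CLDN3*, under 10 CPM on average, was not ranked.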

How the data were processed

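RNA was sequenced from 10 libraries (TruSeq) of unsorted and sorted HES9 cells, grouped by their titles. The authors deposited whole fragment counts per Ensembl gene without normalization, and these raw counts were tested. The other deposited table is on a log2 scale, treated as a score, which the authors obtained by TMM scaling and conversion to RPKM. Over 27641 genes counted in every library its batch means were equal to within 9.24e-14, so a batch term had been removed before deposit, and it served only as an alternative and for gene lengths. The submitters' processing notes name GRCh37, CASAVA 1.8.2, R 3.2.2 and limma 3.26.9. The aligner, the counter, its strand setting and the annotation are not given in the sources used here.

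Identifiers were matched to GENCODE 44 (GRCh38), which held 88.5% of them and 94% of those tested. Unmatched identifiers, with 7.44 to 20.3% of the counts of a library, stayed in. Counts were filtered (filterByExpr, minimum count 10), scaled by TMM (factors 0.832 to 1.18) and tested with edgeR 4.0.16 in R 4.3.3 by the quasi-likelihood F test, two-sided, with batch as a term, for HHH against general and for batch 2 against batch 1. Each batch was also tested alone, and the difference between batches as an interaction. P-values were adjusted by Benjamini-Hochberg over all tested genes and called under 0.05. Standard errors are the log2 fold change divided by the square root of F. The biological coefficient of variation was 0.128. On simulated counts for HHH against general (23298 genes), 98% of genes changed by 1 on the log2 scale and 50% of those changed by 0.4 were recovered, with 11 false calls. The changed genes all had an expected count over 50, so recovery at lower counts was not tested. The simulated spread depended on level alone, and no GC trend was simulated. Level per length is CPM divided by the length that the deposited RPKM values imply.

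Named genes were the 9 members, and from each other list up to 4 called genes by adjusted p and the 2 most abundant per length that were not called. Members and lists were chosen with earlier results of these data known. Alternatives were other scalings, filters, tools (DESeq2 1.42.0, limma 3.58.1 with voom or on the deposited values), thresholds, a replicate block, removal of a GC trend (spline, 5 degrees of freedom), and each library left out. Removing a GC trend within each batch, and from the interaction together with the block, was added after the data had been seen.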

Additional observations from a re-analysis of the deposited data

Results flagged for a closer look

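*CLDN4* in general batch 1 replicate 1 stood at 63.5 CPM, apart from the other 4 general libraries at 25.1 to 35.5 CPM. The gap was 0.728 of the range of the 5 values, beyond the 95% limit of Dixon's test, which chance passes in about 1 in 20 groups, and of the other 4 general libraries 3 belong to batch 2, where *CLDN4* is lower. The effect of population on *CLDN3* differed between batch 2 and batch 1 by -0.97 on the log2 scale in edgeR's test of the interaction (adjusted p = 0.0389), and by -0.31 (adjusted p = 0.501) once a GC trend was removed from each library.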

How the results depend on the processing

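Among the 23 alternative fits of HHH against general, *CLDN3*, *OCLN* and *TJP1* kept both their direction and their side of the threshold in all, and *EPCAM* kept its direction in all. The count of calls over all genes, 1373, became 168 without the batch term, 2423 without a filter, 616 at an adjusted p under 0.01, 701 with a fold over 1.5 as well, and 2528 with the GC trend removed and the replicate block. Leaving out 1 library gave 808 (HHH batch 2 replicate 2) to 2347 (HHH batch 1 replicate 3). The number of the 9 genes called, 1, became 0 without the batch term, with a fold over 1.5 and on the deposited log2 values, and 2 with the GC trend removed and the block. In batch 1 the 136 calls became 462 with DESeq2 and 82 with the GC trend removed, and 48 to 761 without 1 library, where the lone library left in a population is assumed to vary like the others. *CLDN4* alone of the 9 was then called, at -0.62 (adjusted p = 0.0173) without general batch 1 replicate 2, so that 0 to 1 were called, and without general batch 1 replicate 1 it stood at 0.23. In batch 2 the 3166 calls became 1300 to 2924 without 1 library. The 183 calls of the interaction became 838 with DESeq2 and 16 with the GC trend removed, and 21 to 222 without 1 library, and its 1 call among the 9 became 0 in both fits with the GC trend removed and was 0 to 1 without 1 library. In batch 2 against batch 1 no count of calls in both directions together moved by more than 1.5 times. By direction the counts did move, as scaling by library size only turned 5651 higher and 5634 lower genes into 11925 and 1667. Among the 9 genes 6 were called in that fit too, with *TJP1* and *F11R* higher and *OCLN* and *CLDN10* no longer called.

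The values that changed sign follow, none of them called after the change except *F11R* between batches, while *CLDN10* between batches had been called at -0.22 before it. For HHH against general they were *F11R* at -0.012 (upper quartile), -0.025 (library size only), 0 (1 CPM in 5 libraries) and -0.127 (deposited log2 values), *CLDN7* at -0.036 and *CLDN10* at -0.077 (deposited log2 values), *CLDN6* at 0.031 with the GC trend removed and 0.076 with the block too, and *CLDN4* at 0.141 in that last fit. Within batch 1, *CLDN7* stood at -0.005 (RLE and DESeq2) and -0.038 (GC) and *CLDN3* at -0.041 (GC). Within batch 2, *CLDN4* stood at 0.002 (RLE and DESeq2) and 0.147 (GC) and *CLDN6* at 0.102 (GC). In the interaction, *CLDN6* stood at 0.155 (GC) and 0.093 (GC and block), *CLDN10* at -0.053 (library size only), -0.073 (GC) and -0.025 (GC and block), and *CLDN4* at -0.01 (GC and block). Between batches with library size only, *CLDN3* stood at 0.21, *CLDN10* at 0.117 and *F11R* at 0.226, called higher. Leave-one-out ranges that crossed 0 were, for HHH against general, *CLDN4* -0.192 to 0.074 and *F11R* -0.033 to 0.047. Within batch 1 they were *CLDN4* -0.621 to 0.234, *CLDN6* -0.117 to 0.04, *CLDN7* -0.142 to 0.127 and *CLDN10* -0.075 to 0.095, and within batch 2 *CLDN4* -0.053 to 0.027 and *OCLN* -0.092 to 0.003. In the interaction they were *EPCAM* -0.027 to 0.276, *CLDN4* -0.242 to 0.595, *CLDN6* -0.126 to 0.046, *CLDN10* -0.006 to 0.148 and *TJP1* -0.116 to 0.062. The cause of these changes was not tested.

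General and HHH libraries share replicate numbers in 4 cases. Deviations from the mean of population and batch correlated at 0.164 (batch 1 replicate 2), 0.262, 0.15 and 0.0884 (batch 2 replicates 1, 2 and 3), and over 12 choices of prior count and minimum level, tried after this result was seen, the values ran from 0.019 to 0.313, with all 4 above 0.1 in 4 choices. The numbers were therefore not taken to pair the libraries. With the replicate block 1636 genes were called over both batches, 3733 in batch 2 and 142 in the interaction, and the block changed no call among the 9. Among the other junction and epithelial genes described it added *MAGI2* (-0.36, adjusted p = 0.0417). Among the cell markers it added *COL1A2* (-0.37, adjusted p = 0.0281) and *TDGF1* (0.44, adjusted p = 0.0342), and it lost *SOX2* (-0.26, adjusted p = 0.0773). Of the 9, *CLDN4* turned to 0.032 over both batches and to -0.141 in the interaction, and *TJP1* to 0.022 in the interaction. In batch 2 each pair of the same number correlated above each pair of different numbers, at -0.162 to -0.00232. In batch 1, with 2 libraries per population, deviations mirror each other. General replicate 1 and HHH replicate 3, of different numbers, therefore also correlated at 0.164 there.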
